A study of Rattus norvegicus with 16 samples.

Results

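A set of 9 genes of the p53 and DNA damage response was followed in the livers of weanling rats: Cdkn1a, Mdm2, Ccng1, Gadd45a, Gadd45b, Aen, Bax, Phlda3 and Tp53inp1. They were found by matching the RefSeq accession of each non-control probe to these rat symbols. That gave 12 probes for the 9 genes, of 30367 probes on the array, and 11 of the 12 passed the filter on dim probes, as did 13262 probes in all. Each gene is represented by its brightest kept probe, and the 9 genes are among 12072 genes or identifiers tested.

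The tumour suppressor p53 is a transcription factor that is held at low levels by the ubiquitin ligase Mdm2 and accumulates after DNA breaks or other stress. It then binds paired half-sites in its target genes and raises transcripts that stop the cell cycle, assist repair, start apoptosis or feed back on p53 itself. In liver these genes respond to genotoxic chemicals, and Cdkn1a and the Gadd45 genes also respond to other forms of stress, including glucocorticoids and fasting.

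The samples were livers of male Sprague-Dawley rats at 21 days of age, and each array held RNA of 2 randomly paired pups of a group. The mixture combined OCPs (organochlorine pesticides), PCBs (polychlorinated biphenyls) and methyl mercury (MeHg), dissolved in corn oil and given to dams at 1 mg per kg per day in gestation and lactation. MM pups were born to a dam on the mixture and nursed by another such dam. M pups were born to and nursed by the same dam on the mixture. CC pups were born to a control dam and nursed by another control dam. C pups were nursed by their birth mother, a dam on corn oil alone. Each of the 4 groups had 4 arrays. The labels do not name the litter of a pool, so p-values measure the spread between pools, some of which may share a litter. The remaining groups, and rats of adult age, were not analysed here.

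Every array carried liver RNA in Cy5 and a universal rat reference RNA, made from 14 rat cell lines, in Cy3, with no dye swap. All M and MM arrays were on slide 2 and all C and CC arrays on slide 1. A mixture difference and a slide difference therefore cannot be told apart, whereas CC minus C and MM minus M lie within a slide. The reference RNA is the same in all groups, so a Cy3 difference between the slides is not a difference between pups. The median spot had a Cy5 intensity of 87 to 102 per array over a background of 67 to 73, and no spot was saturated. Precision is set by the 4 arrays per group. In whole liver, fewer cells of a type and less RNA per cell cannot be told apart. The summed Cy5 intensity of 8 hepatocyte markers was alike in all groups, from 987000 to 1054000 on the M and MM arrays and from 990000 to 1054000 on the C and CC arrays. Summed skeletal muscle markers, 3 of 8 kept, reached 9969 on CC 1 and 8063 on CC 2, against 287 to 365.4 on the other arrays. Summed exocrine pancreas markers, also 3 of 8 kept, reached 8292 on CC 2, 2973 on CC 1, 2429 on MM 1 and 1286 on M 6. The part of these transcripts in the values below was not tested, except that values without CC 1 and CC 2 are given where a call changed.

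The promoter sequences of these genes are shown because p53 acts through them and because they separate the members with a p53 motif near the start from those without. RefSeq promoter sequences on the GRCr8 build, from 250 bases before to 50 bases after the start, were at hand for 7 members and not for Bax and Tp53inp1. The p53 half-site, searched by its consensus of 10 letters, was present in 4 of the 7, Cdkn1a, Ccng1, Aen and Gadd45a, and in 7.98% of 33469 rat promoters. The same 4 held a full site, as did 3.53% of all promoters. A full site meant 2 half-sites no more than 13 bases apart with at most 2 mismatches in all. The core C and G had to be kept in both half-sites. No match was found in this window of Mdm2, Gadd45b or Phlda3, which says nothing of sites elsewhere. The 250 bases before each start follow, 5′ to 3′, with the 2 half-sites of the full site with the fewest mismatches in capitals. Of full sites with equal mismatches, only the first is in capitals.
Cdkn1a: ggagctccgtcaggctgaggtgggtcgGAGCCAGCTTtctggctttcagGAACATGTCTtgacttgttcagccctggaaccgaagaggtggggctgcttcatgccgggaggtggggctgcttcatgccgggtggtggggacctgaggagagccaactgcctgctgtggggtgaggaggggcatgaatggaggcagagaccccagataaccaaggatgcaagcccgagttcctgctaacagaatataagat
Ccng1: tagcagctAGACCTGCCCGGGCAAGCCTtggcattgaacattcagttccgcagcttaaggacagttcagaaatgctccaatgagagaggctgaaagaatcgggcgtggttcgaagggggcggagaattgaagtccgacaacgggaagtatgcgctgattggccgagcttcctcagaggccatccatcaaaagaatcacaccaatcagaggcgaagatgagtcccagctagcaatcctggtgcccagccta
Aen: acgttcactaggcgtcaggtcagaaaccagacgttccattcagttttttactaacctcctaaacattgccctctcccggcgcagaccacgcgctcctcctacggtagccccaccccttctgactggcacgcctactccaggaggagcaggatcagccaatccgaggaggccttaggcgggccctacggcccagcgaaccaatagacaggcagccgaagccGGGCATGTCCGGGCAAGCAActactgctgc
Gadd45a: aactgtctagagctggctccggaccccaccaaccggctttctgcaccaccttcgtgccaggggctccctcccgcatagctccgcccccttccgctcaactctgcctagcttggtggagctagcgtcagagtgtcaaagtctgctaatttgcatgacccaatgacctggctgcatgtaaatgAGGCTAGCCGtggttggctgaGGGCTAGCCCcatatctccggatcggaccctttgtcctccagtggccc
The Cdkn1a stretch is chr20:7150682-7150931, plus strand, with the capitalised motif at -223 to -192 from the start and 1 mismatch. Cdkn1a held 2 full sites. The other joins the half-site that begins at -201 to the 10 bases directly after it, left in lower case, also with 1 mismatch. The Ccng1 stretch is chr10:25684877-25685126, minus strand, with 2 adjoining half-sites at -242 to -223 and 1 mismatch. The Aen stretch is chr1:142224283-142224532, plus strand, with the motif at -30 to -11 and 2 mismatches. The Gadd45a stretch is chr4:97486800-97487049, minus strand, with the motif at -69 to -39 and 1 mismatch. These matches are a description of letters and not of binding.

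The comparison of mixture-exposed with control pups asks whether the mixture changed the p53 response. In the log2 ratio of liver over reference, Bax and Cdkn1a fell and Gadd45a rose in M pups relative to C pups, and the same 3 genes moved the same way in MM pups relative to CC pups. In the liver channel alone none of the 9 genes passed the test in either comparison. The reference channel of these 3 genes differed between the slides in the opposite direction to the ratio. Differences were called at a Benjamini-Hochberg adjusted p below 0.05 in limma, fitted over all 16 arrays and adjusted over all 12072 genes. Statements that groups overlap or stand apart describe the arrays, and the share of all genes with groups apart was not counted.

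Counted over the members, 3 of 9 were called in the ratio of M minus C, where 20.2% of all genes were called, and 3 of 9 in MM minus CC, where 20.2% of all genes were called as well. In each comparison 1 member was called higher, against 8.3% of all genes in M minus C and 7.89% in MM minus CC. There were 2 members called lower in each, against 11.9% of all genes in M minus C and 12.3% in MM minus CC. The median member differed by -0.03 in M minus C and -0.21 in MM minus CC on the log2 ratio scale, beside -0.05 and -0.06 for all genes. In Cy5 alone 0 of 9 members were called in M minus C and 0 of 9 in MM minus CC. The background there was 2.26% of all genes (273) in M minus C and 2.62% (316) in MM minus CC, and 9 genes are too few to tell a count of 0 from that background. The count of 273 rested in part on single arrays and was 147 without C 9, 157 without M 5 and 165 without M 6.

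**Figure D1:**
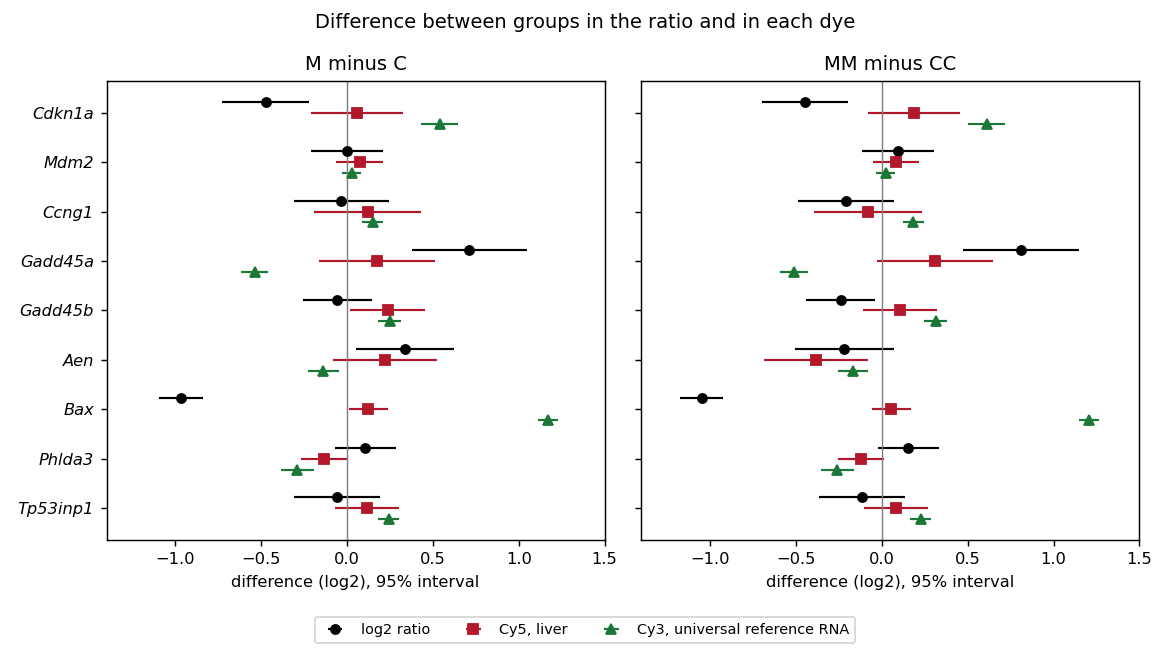
Differences in log2 between M and C (left) and between MM and CC (right) for the 9 genes, in the ratio (circles), in liver Cy5 (squares) and in reference Cy3 (triangles), with 95% confidence intervals from limma, 4 arrays per group. Bax, Cdkn1a and Gadd45a lie away from 0 in the ratio and, on the other side, in Cy3, and their Cy5 differences stay between 0.06 and 0.31.

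Cdkn1a encodes p21, the inhibitor of cyclin-dependent kinases through which p53 arrests the cell cycle. It had the brightest probe of the 9 genes, with 3449.5 to 6661.8 Cy5 intensity units on M and MM arrays and 4301.5 to 6049.5 on C and CC arrays. Its log2 ratio was 1.38, 1.14, 0.81 and 1.11 on M 5 to M 8, against 1.58, 1.72, 1.49 and 1.55 on C 9 to C 12. All M arrays lay below all C arrays, and the difference was -0.47 ± 0.12 (SE, n = 4 arrays per group), 1.39-fold lower, with a limma adjusted p of 0.0104. In MM pups the ratio was 1.38, 1.26, 0.86 and 1.15, against 1.65, 1.66, 1.69 and 1.45 in CC pups. These groups did not overlap either, and the difference was -0.45 ± 0.12 with an adjusted p of 0.0148. Without CC 1 and CC 2 it was -0.40 with an adjusted p of 0.104.

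The liver signal of Cdkn1a did not follow the ratio. Its normalised Cy5 signal in log2 was 12.74, 12.44, 11.99 and 12.30 in M pups, against 12.22, 12.50, 12.27 and 12.24 in C pups. The highest and the lowest of these arrays were both from M pups, and the difference was 0.06 with a 95% interval of -0.21 to 0.33 and an adjusted p of 0.877. In MM pups Cy5 was 12.65, 12.52, 12.27 and 12.37, against 12.22, 12.29, 12.35 and 12.19 in CC pups. The groups overlapped, and the difference was 0.19 with an interval of -0.08 to 0.45 and an adjusted p of 0.537. The reference signal of the same probe was 7324.8 ± 518.5 Cy3 units on slide 2, against 4364.3 ± 125.3 on slide 1 (SD, n = 8 arrays each). After normalisation that was 0.57 higher on slide 2 in log2, or 1.49-fold.

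Mdm2 encodes the ubiquitin ligase that marks p53 for degradation and is itself induced by p53, which closes a feedback loop. Its Cy5 intensity was low, from 104.5 to 130.5 units on M and MM arrays and from 106.2 to 128 on C and CC arrays. In its kept probe the log2 ratio of Mdm2 was -2.08, -2.43, -2.48 and -2.45 in M pups, against -2.46, -2.36, -2.17 and -2.46 in C pups. The groups overlapped, and the difference was 0.00 with an interval of -0.21 to 0.21. MM minus CC gave 0.09 with an adjusted p of 0.551, and the Cy5 differences were 0.07 in M minus C and 0.08 in MM minus CC. Its Cy3 signal differed by 0.03 between the slides, the only member whose Cy3 difference was not called, with an adjusted p of 0.218.

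Ccng1 encodes cyclin G1, a p53 target that acts with protein phosphatase 2A on Mdm2. The ratio of Ccng1 in log2 was -1.88, -1.59, -1.56 and -1.63 in M pups, against -1.46, -1.66, -1.67 and -1.74 in C pups. The groups overlapped, with a difference of -0.03 and an interval of -0.31 to 0.25. MM minus CC was -0.21 with an adjusted p of 0.284. In Cy5 the differences were 0.12 in M minus C and -0.08 in MM minus CC, of opposite sign and both with intervals that include 0. Pools of one group differed more than the groups did, since CC pups ranged from 6.67 to 7.38 in Cy5 log2 and M pups from 6.72 to 7.25.

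Gadd45a encodes a small stress protein that binds Pcna and activates stress kinase signalling, and it was the only member called higher. Its log2 ratio was -0.68, -0.05, -0.16 and -0.53 in M pups, against -0.85, -1.06, -1.05 and -1.30 in C pups. The groups did not overlap, and the difference was 0.71 ± 0.16 (SE, n = 4), 1.64-fold higher, with a limma adjusted p of 0.005. In MM pups the ratio was -0.56, -0.50, -0.63 and -0.03, against -1.22, -1.08, -1.54 and -1.12 in CC pups. Here too the groups stood apart, with a difference of 0.81 ± 0.16 (1.75-fold) and an adjusted p of 0.00216.

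In liver Cy5 alone Gadd45a was 8.03, 8.62, 8.58 and 8.20 in M pups, against 8.36, 8.29, 8.12 and 7.97 in C pups. M 5 lay below 3 of the C arrays, and the difference was 0.18 with an interval of -0.16 to 0.51 and an adjusted p of 0.651. In MM pups Cy5 was 8.17, 8.24, 8.10 and 8.69, against 7.94, 8.25, 7.68 and 8.10 in CC pups. CC 2 lay above 3 of the MM arrays, and the difference was 0.31 with an interval of -0.03 to 0.64 and an adjusted p of 0.392. Cy3 was 1329.8 ± 62.3 units on slide 2, against 1748.3 ± 112.4 on slide 1 (SD, n = 8 each), which was 0.52 lower in log2 on slide 2 (1.44-fold).

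Gadd45b, the family member best known as a target of NF-kappaB, was not called in the ratio or in Cy5 in any comparison. Its log2 ratio was -2.26, -2.17, -2.35 and -2.26 in MM pups, against -2.00, -1.96, -1.98 and -2.15 in CC pups. All MM arrays lay below all CC arrays, yet the difference of -0.24 ± 0.10 did not pass, with an adjusted p of 0.0861. In Cy5 MM minus CC was 0.10 (-0.11 to 0.32) and M minus C was 0.24 (0.02 to 0.45, adjusted p = 0.271). M 5 had the highest Cy5 signal of the 16 arrays, 8.61 in log2, while the other M arrays were between 8.08 and 8.29 and C arrays between 7.87 and 8.13. Cy3 was 0.28 higher on slide 2, or 1.21-fold.

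Aen encodes apoptosis-enhancing nuclease, an exonuclease induced by p53. Its log2 ratio was -0.13, -0.19, -0.43 and -0.52 in M pups, against -0.49, -0.67, -0.70 and -0.76 in C pups. M 8 lay just below C 9, so the groups overlapped, and the difference of 0.34 ± 0.14 had an adjusted p of 0.0907. Within the cross-fostered pups the sign was turned, with MM minus CC at -0.22 ± 0.14 and an adjusted p of 0.276. In Cy5 the 2 differences were 0.22 (-0.08 to 0.53) in M minus C and -0.39 (-0.69 to -0.08, adjusted p = 0.201) in MM minus CC. The second Aen probe was above background on 8 of 16 arrays and differed by 0.01 in M minus C and 0.01 in MM minus CC.

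Bax encodes the pore-forming protein that opens the outer mitochondrial membrane in apoptosis. Its probe is printed at 10 spots per array, and it had the narrowest spread of the 9 genes, with a mean SD of 0.06 within groups in the log2 ratio. The ratio was -0.84, -0.89, -0.92 and -0.96 in M pups, against -0.03, 0.11, 0.03 and 0.14 in C pups. The groups were far apart relative to their spread, with a difference of -0.97 ± 0.06 (SE, n = 4), 1.95-fold lower, and a limma adjusted p of 5.22e-08. In MM pups it was -0.90, -0.92, -0.87 and -0.97, against 0.19, 0.10, 0.11 and 0.14 in CC pups. That difference was -1.05 ± 0.06, 2.07-fold lower, with an adjusted p of 1.46e-08.

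The liver signal of Bax was 136.2, 177.6, 162.9 and 161.9 Cy5 units in M pups, against 149.2, 157.3, 127.5 and 153.2 units in C pups. In MM pups it was 141.6, 168, 125.8 and 150.8 units, against 158.9, 157.8, 150.4 and 146.2 in CC pups. Both pairs overlapped before normalisation. After it, M minus C was 0.12 in Cy5 log2 (0.01 to 0.24, adjusted p = 0.268) and MM minus CC was 0.06 (-0.06 to 0.17, adjusted p = 0.695), both of the opposite sign to the ratio. The 4 MM arrays, from 7.14 to 7.19, lay above the 4 CC arrays, from 7.07 to 7.14, without passing the test.

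The reference signal of Bax was 780.1 to 860.5 Cy3 units on slide 2 and 301.4 to 351.9 on slide 1. Its normalised Cy3 difference of 1.19, or 2.28-fold, ranked 12 from the highest among 12072 genes. The median difference of all genes in Cy3 was 0.03 in M minus C and in MM minus CC. Cdkn1a ranked 233 on the same scale, while Gadd45a ranked 11723 and so was near the low end.

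**Figure D2:**
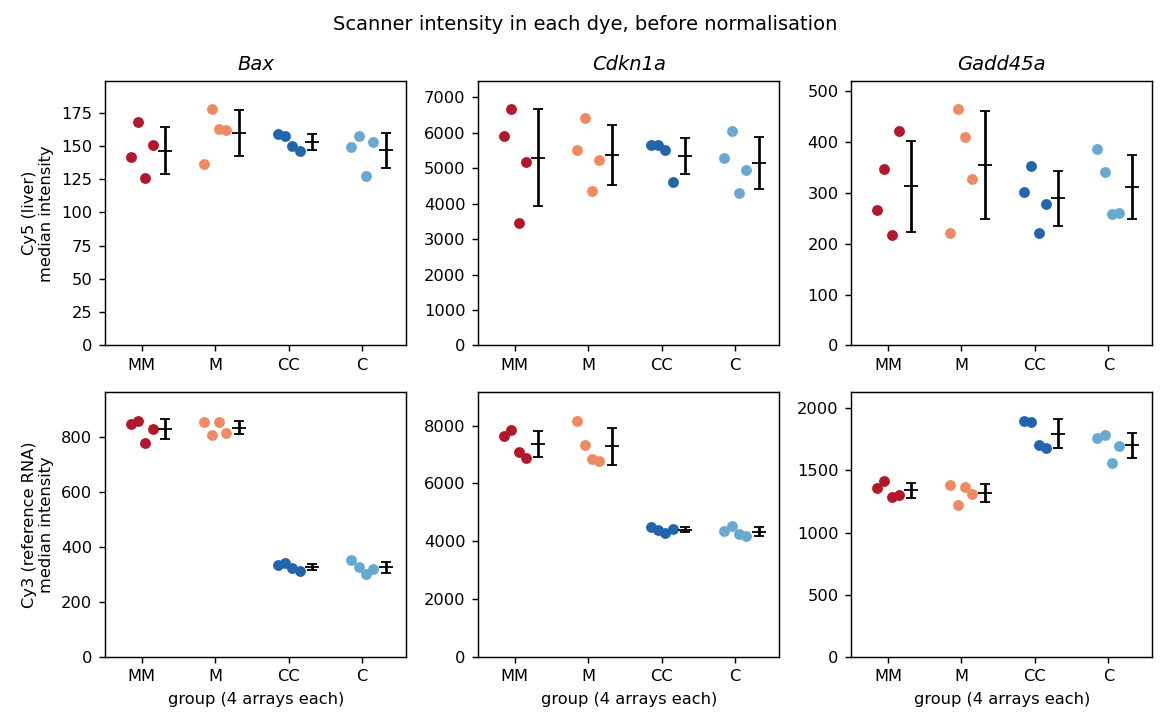
Median scanner intensity of Bax, Cdkn1a and Gadd45a in Cy5 (top, liver) and Cy3 (bottom, reference RNA) on each of the 16 arrays, before normalisation. Points are arrays and bars are the group mean and SD (n = 4). Cy5 overlaps between all groups, whereas Cy3 separates MM and M, on slide 2, from CC and C, on slide 1.

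Phlda3, which competes with the kinase Akt for membrane lipids and is a p53 target, was not called in the ratio or in Cy5. In log2 the ratio of Phlda3 was -1.46, -1.63, -1.50 and -1.69 in M pups, against -1.77, -1.76, -1.57 and -1.60 in C pups. The groups overlapped, with a difference of 0.11 and an adjusted p of 0.41, and MM minus CC was 0.15 with an adjusted p of 0.215. In Cy5 the sign was the other way, with -0.13 in M minus C (adjusted p = 0.316) and -0.12 in MM minus CC (adjusted p = 0.401). Its Cy3 signal was 0.27 lower on slide 2.

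Tp53inp1 encodes a nuclear and autophagy-linked protein that promotes p53 activity. Its ratio in log2 was 0.37, 0.17, 0.27 and 0.24 in M pups, against 0.09, 0.59, 0.39 and 0.21 in C pups. All M arrays lay within the range of the C arrays, and the difference was -0.06 with an interval of -0.31 to 0.19. MM minus CC was -0.12 with an adjusted p of 0.53. In Cy5 the differences were 0.12 and 0.08, with adjusted p of 0.574 in M minus C and 0.728 in MM minus CC.

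**Figure D3:**
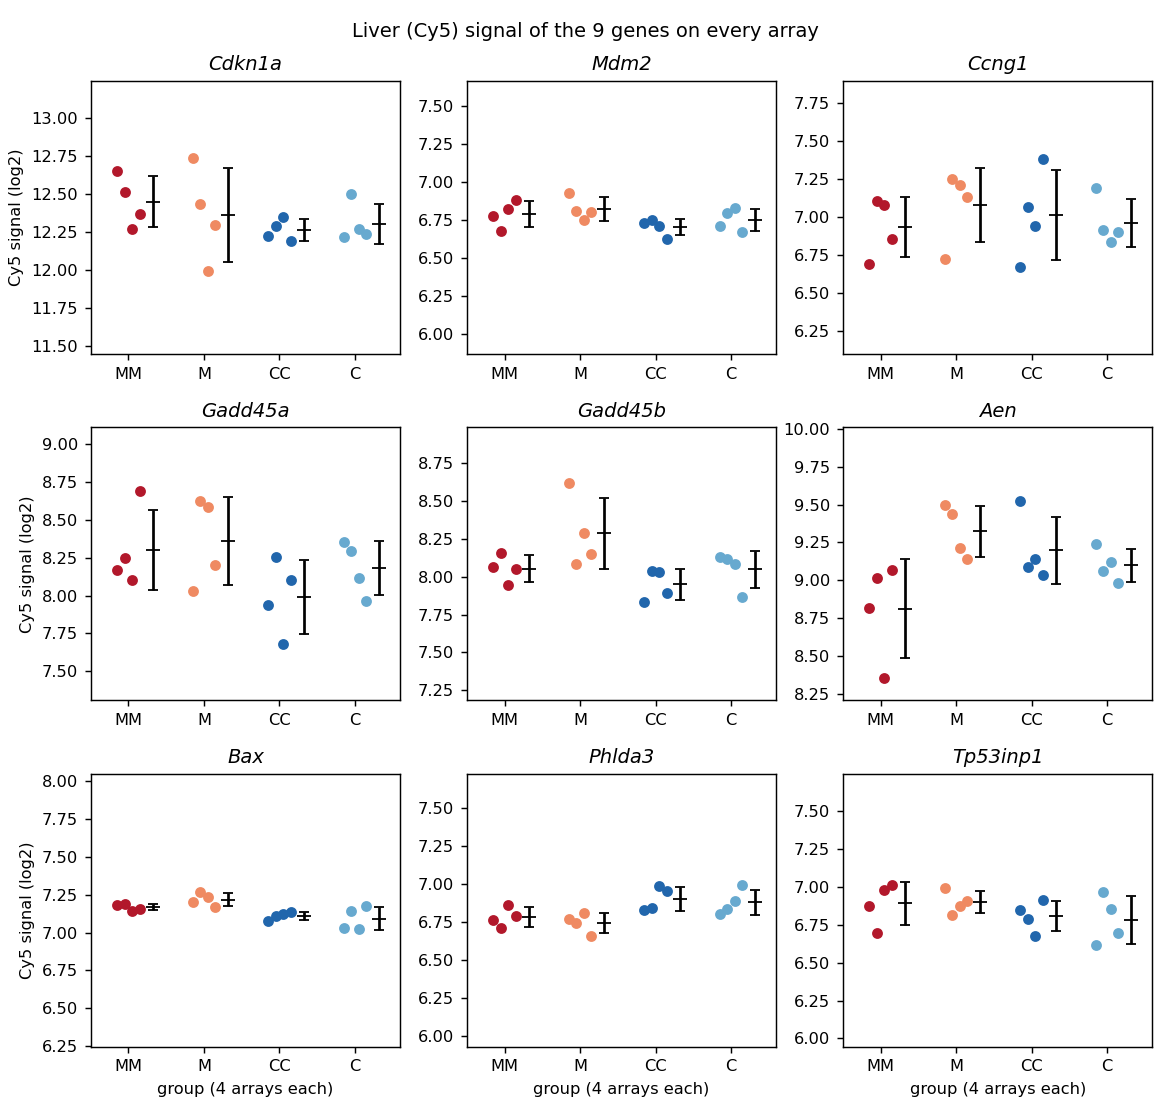
Normalised liver (Cy5) signal in log2 of the 9 genes on every array, by group. Points are arrays, bars are the group mean and SD (n = 4), and every panel spans the same range of 1.8 log2 units. MM and M overlap CC and C for every gene except Bax in MM against CC, where the arrays stand just apart. Aen is lower on all 4 MM arrays than on all 4 M arrays. The share of all genes with groups apart was not counted.

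With all 8 mixture arrays set against all 8 control arrays, a contrast added after the data had been seen, 0 of 9 members were called in Cy5, beside 8.63% of all genes. The smallest adjusted p was that of Phlda3, 0.0934, at a difference of -0.13 (-0.22 to -0.03). Gadd45a differed by 0.24 (0.00 to 0.48, adjusted p = 0.207), Gadd45b by 0.17 (0.02 to 0.32, adjusted p = 0.166) and Bax by 0.09 (0.01 to 0.17, adjusted p = 0.159). Cdkn1a differed by 0.12 (-0.07 to 0.31).

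In Cy3 alone 8 of 9 members were called between slide 2 and slide 1, 5 higher and 3 lower, where 75.8% of all genes were called. Their sizes spanned -0.52 for Gadd45a to 1.19 for Bax. Among all genes called in the ratio, 85% in M minus C and 85.3% in MM minus CC were also called in Cy3 in the opposite direction, while 6.22% and 6.33% were called in Cy5 in the same direction. Bax, Cdkn1a and Gadd45a were in that larger share. A slide has 2 rows of arrays, and every group had 2 arrays per row. The CC arrays of row 1 were CC 1 and CC 2, those with raised muscle and pancreas transcripts. Within rows the Bax ratio differed by -0.90 and -1.03 in M minus C and by -1.05 in both rows in MM minus CC, all called. For Cdkn1a the M minus C values were -0.39 in row 1 (adjusted p = 0.0767) and -0.56 in row 2 (adjusted p = 0.0659), and the MM minus CC values were -0.34 (adjusted p = 0.129) and -0.56 (adjusted p = 0.0506). For Gadd45a they were 0.59 (adjusted p = 0.0966) and 0.83 (adjusted p = 0.0744) in M minus C, and 0.62 (adjusted p = 0.0989) and 1.00 (adjusted p = 0.0371) in MM minus CC.

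Cdkn1a, Mdm2 and Aen each had a second probe, and those of Cdkn1a and Mdm2 differed in how their Cy3 signal shifted between the slides. The second Cdkn1a probe, at 625 to 1527.5 Cy5 units on M and MM arrays and 657 to 1431.5 on C and CC arrays, was the most variable of all 12 in liver. Its Cy5 signal in log2 was 10.91, 9.39, 10.32 and 9.93 in M pups, against 9.52, 10.42, 10.41 and 9.32 in C pups. In MM pups it was 9.53, 9.22, 9.73 and 10.15, against 9.78, 10.25, 9.87 and 9.81 in CC pups. The highest array, M 5, was 3.23-fold above the lowest, MM 2, and arrays of one group lay at both ends of the range. The brighter probe spanned 1.68-fold over the same 16 arrays.

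The second Cdkn1a probe was not called in the ratio, at 0.19 (adjusted p = 0.678) in M minus C and -0.35 (adjusted p = 0.406) in MM minus CC. Its Cy3 signal differed between the slides by 0.02 (adjusted p = 0.315), against 0.57 for the brighter probe in the same reference RNA. With both probes averaged, Cdkn1a was not called, at -0.14 (adjusted p = 0.583) in M minus C and -0.40 (adjusted p = 0.0929) in MM minus CC. Over the 16 arrays the 2 probes had Pearson's r of 0.12 (permutation p = 0.659, 100000 resamples) and Spearman's rho of 0.06 (permutation p = 0.813) in Cy5. Without the 2 arrays farthest from the median of the brighter probe r was -0.22. These were among 4 such relations, and the smallest unadjusted p was 0.285. The second Mdm2 probe was well above background on 4 of 16 arrays, did not pass the filter and was not tested. Its mean log2 ratio was -1.20 in M pups against -1.60 in C pups, and -1.11 in MM pups against -1.65 in CC pups. In Cy5 log2 the means of this second probe were 6.37 against 6.47 and 6.37 against 6.45. Its Cy3 signal was 490.8 ± 21.6 units on slide 2 and 735 ± 44.6 on slide 1, while the kept Mdm2 probe had 1796.7 ± 60.7 and 1588.8 ± 125.6 units (SD, n = 8 each).

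**Figure D4:**
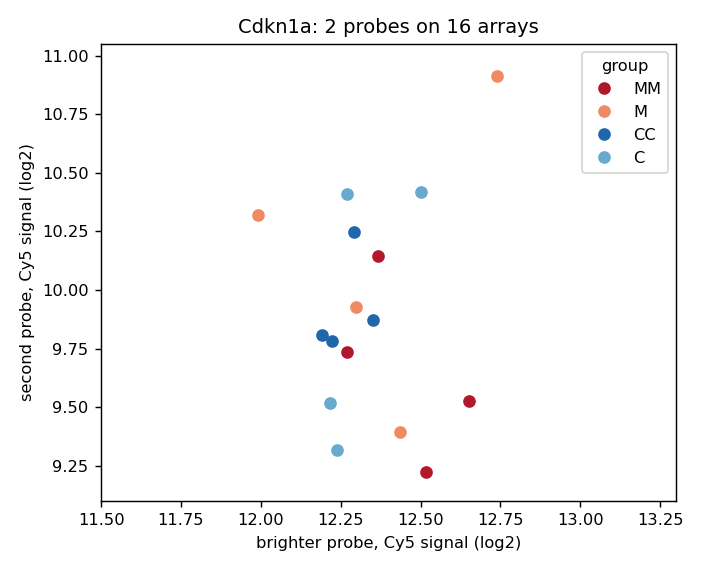
Normalised liver (Cy5) signal in log2 of the 2 Cdkn1a probes against each other on the 16 arrays, coloured by group. The brighter probe spans 11.99 to 12.74 and the second 9.22 to 10.92, and the points show no shared order (r = 0.12).

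Among the genes with the ratio profile most like that of Bax over the 16 arrays were Tmem33 (r = 0.98) and Paxip1 (r = 0.98), which encodes a BRCT-domain protein. Those most like Cdkn1a were Lrp6 (r = 0.97), Arid3a (r = 0.97) and Extl3 (r = 0.95). The arrays share a slide in sets of 8, and a step between slides enters every coefficient. The Cy3 differences between slides of these 5 genes were 1.21, 0.46, 0.22, 1.00 and 1.02 in the order named. Genes were also ranked by their likeness to the second Cdkn1a probe in Cy5, a choice made after its spread was seen. The leading genes were Spring1 (r = 0.81), Cpsf6 (r = 0.76), Fkbp5 (r = 0.75), Zbtb16 (r = 0.73) and Sdc4 (r = 0.72). Fkbp5 and Zbtb16 are well-known glucocorticoid-induced genes. The share of such genes among all genes was not taken, and a link of this probe to glucocorticoids was not tested.

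Cross-fostering was compared within a slide. No member was called in CC minus C or MM minus M, in the ratio or in Cy5, and no gene of the 12072 was called in any of these 4 tests by limma (0% in each). At an unadjusted p below 0.05 there were 334 genes in CC minus C and 277 in MM minus M in the ratio, and 289 and 262 in Cy5. Taking the probe that represents each gene, the widest member difference was that of Aen in mixture-exposed pups. Its Cy5 signal in log2 was 8.82, 9.02, 8.35 and 9.07 in MM pups, against 9.50, 9.44, 9.22 and 9.14 in M pups. All MM arrays lay below all M arrays, at -0.51 ± 0.14 (1.42-fold lower), with an unadjusted limma p of 0.0026 and an adjusted p of 1. In the ratio the difference was -0.48 ± 0.14 with an adjusted p of 0.999. The second Aen probe differed by -0.08 in Cy5 and -0.06 in the ratio.

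Other members differed less in the probe that represents them. In MM minus M Gadd45b was -0.23 ± 0.10 in Cy5 (unadjusted p = 0.0379, adjusted p = 1), and in CC minus C Gadd45a was -0.19 ± 0.16 in Cy5 and -0.18 ± 0.16 in the ratio. Bax differed by 0.07 in CC minus C and -0.01 in MM minus M in the ratio, and Cdkn1a by 0.03 and 0.05. The interaction, which asks whether the mixture difference depends on fostering, was called for no member and no gene (0% in the ratio and in Cy5, with 360 and 313 genes at an unadjusted p below 0.05). Its size was -0.56 for Aen in the ratio, with an unadjusted p of 0.0103 and an adjusted p of 0.999.

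The other genes of the pathway were read from 4 lists. Of 45 named p53 targets and regulators, 27 were tested. In the ratio 4 of the 27 rose and 2 fell in M minus C, and 3 rose and 3 fell in MM minus CC, with medians of -0.01 and 0.01. Over all genes 20.2% were called in each comparison, 8.3% higher and 11.9% lower in M minus C and 7.89% higher and 12.3% lower in MM minus CC. The call counts of this list are near those shares. In Cy5 alone 0 of 27 were called in either comparison, with medians of -0.06 and -0.04, beside -0.005 and -0.002 for all genes. Gdf15, a stress-induced cytokine of the TGF-beta superfamily, rose by 0.58 ± 0.13 in the ratio of M minus C (adjusted p = 0.0061) and 0.68 ± 0.13 in MM minus CC (adjusted p = 0.00221). Its Cy5 differences were -0.19 and -0.09 and its Cy3 differences -0.80 and -0.78. Apaf1, the scaffold of the apoptosome, rose by 0.33 and 0.45 in the ratio and differed by -0.08 and -0.01 in Cy5.

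Ninj1, a membrane protein of cell rupture, rose by 0.64 ± 0.13 in M minus C, with 0.20 in Cy5 (adjusted p = 0.469), and differed by 0.22 in MM minus CC (adjusted p = 0.238). Btg1, an antiproliferative gene, fell by 0.63 ± 0.13 in M minus C (adjusted p = 0.00263) and by 0.43 ± 0.13 in MM minus CC (adjusted p = 0.0272). It was lower in Cy5 too, by -0.44 (adjusted p = 0.0604) and -0.31 (adjusted p = 0.213), without a call. Steap3, a metalloreductase, fell in the ratio by 0.35 and 0.43, and Ppm1d, the phosphatase that turns off the damage response, fell by 0.23 in MM minus CC (adjusted p = 0.0151). All 8 mixture arrays were also set against all 8 controls, the contrast added after the data had been seen. In Cy5 1 of the 27 p53 targets and regulators was then called higher and 2 lower, beside 8.63% of all genes. Damage signalling had 1 call among 17 genes, DNA repair 1 among 31, and the Bcl2 family and caspases 0 among 17. These counts are near or below that share. Btg1 (-0.38, adjusted p = 0.00944) and Crip2 (-0.37, adjusted p = 0.00833) were lower and Perp (0.22, adjusted p = 0.0291) was higher in Cy5, in the same direction as in the ratio. Of the other listed genes, Usp7 (-0.14, adjusted p = 0.0482) was lower in Cy5 and opposite to its ratio, and Parp1 (0.28, adjusted p = 0.00438), a sensor of DNA breaks, was higher in Cy5 without a call in the ratio.

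Damage signalling had 17 of 35 genes tested, of which 3 rose and 0 fell in the ratio in M minus C, and 2 rose and 1 fell in MM minus CC. Both counts of 3 called among 17 are near the 20.2% of all genes called. The median ratio differences were 0.10 and -0.07. Usp7, the deubiquitinase of Mdm2 and p53, rose by 0.53 in M minus C (adjusted p = 3.98e-05) and 0.68 in MM minus CC (adjusted p = 5.39e-06) in the ratio. In Cy5 it was -0.17 and -0.11, and its Cy3 signal was 0.80 lower in M minus C and 0.88 lower in MM minus CC. Cdc25b, a cell-cycle phosphatase, rose by 0.49 and 0.31 with Cy5 at 0.10 and 0.00. Cop1, a ubiquitin ligase for p53, rose by 0.23 in M minus C, and H2ax, the histone variant phosphorylated at DNA breaks, fell by 0.32 in MM minus CC with Cy5 at 0.04.

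DNA repair had 31 of 56 genes tested, with 0 rising and 1 falling in M minus C and 1 rising and 0 falling in MM minus CC, beside 20.2% of all genes called in each. The median ratio differences were 0.01 and -0.05. The translesion polymerase gene Polk fell by 0.35 in M minus C (adjusted p = 0.0467), and the damage-recognition gene Xpc rose by 0.44 in MM minus CC (adjusted p = 0.0107), with Cy5 at 0.10 and Cy3 at -0.46. The Bcl2 family and caspases had 17 of 27 genes tested, with 1 rising and 1 falling in M minus C and 2 rising and 1 falling in MM minus CC, beside the same 20.2% of all genes. The median ratio differences were -0.07 and -0.06. Mcl1, an antiapoptotic member, rose by 0.32 and 0.37 in the ratio with Cy5 at 0.04 and 0.08. Cycs, cytochrome c, fell by 0.33 in the ratio of M minus C and was -0.32 in Cy5 (adjusted p = 0.0836). In MM minus CC Aifm1, the apoptosis-inducing factor, rose by 0.25 and Bok fell by 0.34. No gene of these 3 lists was called in Cy5 in M minus C or MM minus CC, and none in the cross-fostering comparisons in either scale.

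**Figure D5:**
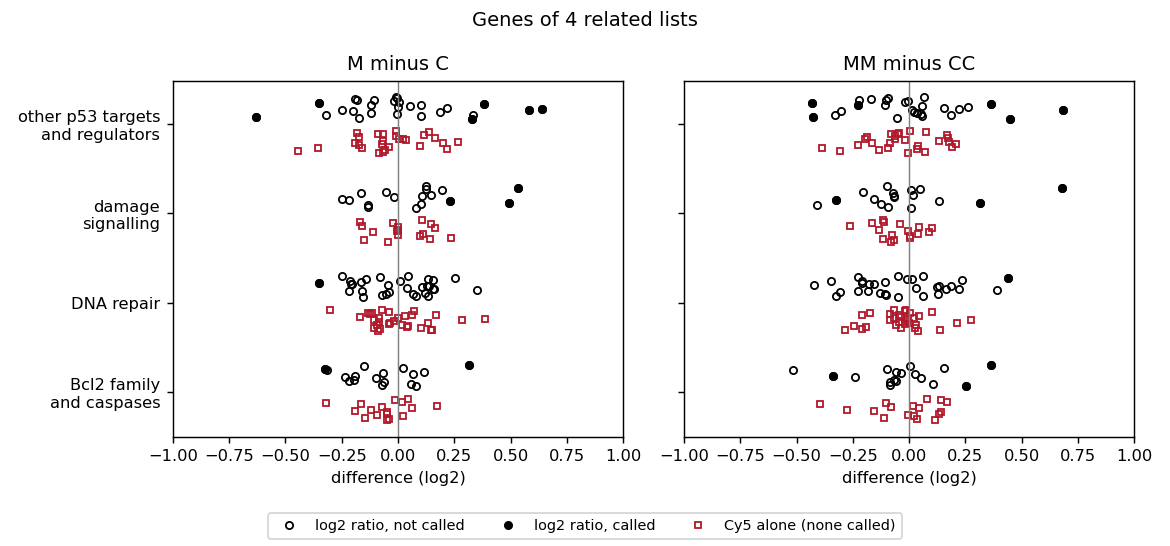
Log2 differences of the tested genes of 4 lists in M minus C (left) and MM minus CC (right), in the ratio (circles, filled where called) and in Cy5 alone (squares). Called genes lie between -0.63 and 0.68 in the ratio, and no square is a call.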

How the data were processed

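The scanner files hold median pixel intensities of each spot and its local background in Cy5 and Cy3, made by the authors with Agilent Feature Extraction 11.0.1.1 (probe annotation of build rn4), per the file headers. They also hold a log10 ratio, deposited as the scanner software computed it. The authors' deposited value table, used as an alternative, is on the log2 scale with its normalization unstated, array medians of -0.049 to -0.037 and correlations of 0.996 to 0.997 with the log2 ratios computed here, sample over reference.

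Intensities were corrected with normexp (offset 50), and ratios were loess-normalised within arrays with control spots at weight 0. Mean signals had been planned, but the files hold medians. Spots of a probe were then averaged. Outlier spots took part in the normalisation, of ratios and of single dyes, and were dropped only in that averaging. For single dyes, log2 signals were quantile-normalised between arrays, so the dye differences do not add up exactly to the ratio difference. Probes were kept where Cy5 was well above background on over 0.5 of their spots, outlier spots included, on at least 3 arrays of a group. Symbols came from RefSeq accessions through RefSeq's GRCr8 gene list (18005 of 30367 probes). A group-means model on 16 arrays was fitted with limma 3.58.1 in R 4.3.3 (packages data.table, version 1.17.8, and jsonlite, version 2.0.0) with eBayes, two-sided, and tested on simulated data. Symbol-named genes from each list are named where called in M minus C or MM minus CC, up to 4 per comparison by smallest p, and any called alike in Cy5. For Bax and Cdkn1a the genes with the highest Pearson r in the ratio are named, of which 1 is not reported here. Sesn2 was called in both comparisons but ranked below these 4. Marker lists not printed in the report (Kupffer cell and leukocyte, endothelial, cholangiocyte, erythroid, dividing cell) had overlapping ranges in all groups. Members, lists and tests were chosen with earlier results of these data known.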

Additional observations from a re-analysis of the deposited data

Results flagged for a closer look

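Among 88 groups of 4 arrays examined for a lone array, 3 had one whose distance from the nearest other array was large against the range of its group. Chance alone would single out about 1 in 20 such groups. The Mdm2 log2 ratio on M 5 was -2.078, whereas the other M arrays lay between -2.484 and -2.426. The brighter Cdkn1a probe had a log2 ratio of 1.449 on CC 4, below the 1.652 to 1.689 of the other CC arrays. The second Cdkn1a probe had -0.813 on CC 2, above the -1.247 to -1.215 of the other CC arrays. CC 2 is also an array with raised muscle and pancreas transcripts, and the part of these in the value was not tested.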

How the results depend on the processing

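The ratio calls of Bax, Cdkn1a and Gadd45a held when any single array was left out. In ratio settings that did not change the channel, Bax was called every time. Cdkn1a lost its call within both array rows, with its probes averaged and, in MM minus CC, without CC 1 and CC 2. Gadd45a lost its call within both rows in M minus C and within row 1 in MM minus CC. Fits within a row have 2 arrays per group, and in row 1 the CC arrays are CC 1 and CC 2. Aen in M minus C gained a call in the software's own log ratio (0.29, adjusted p = 0.0199), with array row as a block (0.34, adjusted p = 0.041) and with the 2 groups alone (adjusted p = 0.0449). With median scaling of Cy3, Aen lost its slide call (-0.04, adjusted p = 0.312) and Mdm2 gained one (0.147, adjusted p = 4.92e-05). In M minus C and MM minus CC no member was called in Cy5 under any setting run. Aen was not called in MM minus M either. Members were not looked up under these settings in the other comparisons. Low signal limits Mdm2, Ccng1, Phlda3, Tp53inp1 and Bax most, since their Cy5 intensity was close to the background.

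Counts of all called genes depended on the setting, and the cause was not tested. Without the filter on dim probes, 2244 of 26913 were called in the ratio of M minus C, against 2442 of 12072 in the main fit. In MM minus CC 2189 were called, against 2433, so the share called fell below 20.2% in both comparisons. The counts that moved by over 1.5 times are given next. In M minus C and MM minus CC the ratio gave 4024 and 3957 as computed by the scanner software and 273 and 316 when Cy5 alone replaced it. Within row 1 the ratio gave 846 in M minus C, 593 in MM minus CC, 24 in CC minus C, 1 in MM minus M and 19 in the interaction, and Cy5 gave 59, 78, 20, 1 and 21 in the same comparisons. The CC arrays of row 1 are CC 1 and CC 2, those with raised muscle and pancreas transcripts. Within row 2 the ratio gave 694 in M minus C and 1216 in MM minus CC, and Cy5 gave 24 and 54. In CC minus C and in the interaction row 2 gave 0 in both scales. Array row as a block gave 531 and 485 in Cy5, median scaling 94 and 159, and the 2 groups alone 168 and 169, with 1571 in the ratio of MM minus CC. Without CC 1 and CC 2, MM minus CC had 1484 in the ratio and 76 in Cy5. With single arrays left out, Cy5 calls in M minus C ranged from 147 to 242, with 3 arrays moving the count by over 1.5 times. The other counts moved by less, from 1893 to 2137 in the ratio of M minus C, 1775 to 2241 in the ratio of MM minus CC, 213 to 274 in its Cy5 and 8960 to 9540 in Cy3.

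CC and MM share replicate numbers 1 to 4 in the labels, but same-numbered arrays deviated together with correlations of 0.339, 0.0536, 0.185 and 0.106, so the numbers were not taken as pairs. With the replicate block, MM minus CC had 2004 calls in the ratio and 203 in Cy5, and Bax (adjusted p = 0.00146), Cdkn1a (adjusted p = 0.0367) and Gadd45a (adjusted p = 0.00706) were still called.

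Reversals of sign concerned members that were not called, apart from the change to Cy5. That change gave 0.125 for Bax, 0.060 for Cdkn1a, 0.120 for Ccng1, 0.236 for Gadd45b, -0.135 for Phlda3 and 0.116 for Tp53inp1 in M minus C. In MM minus CC it gave 0.056 for Bax, 0.186 for Cdkn1a, 0.105 for Gadd45b, -0.121 for Phlda3 and 0.084 for Tp53inp1. The scanner software's log ratio gave 0.093 for Ccng1 and 0.011 for Gadd45b in M minus C, and -0.073 for Phlda3 in MM minus CC. Row 1 in Cy5 gave -0.063 for Ccng1 in M minus C, and 0.027 for Ccng1, -0.014 for Mdm2 and -0.033 for Tp53inp1 in MM minus CC. Row 2 gave 0.110 for Ccng1 and -0.015 for Phlda3 in the ratio of M minus C, 0.072 for Tp53inp1 in that of MM minus CC, and -0.109 for Cdkn1a in Cy5 of M minus C. Median scaling in Cy5 of MM minus CC gave -0.021 for Bax and -0.043 for Gadd45b. With single arrays left out, the ratio of M minus C ranged from -0.067 to 0.041 for Ccng1, -0.151 to 0.007 for Gadd45b and -0.132 to 0.034 for Tp53inp1. Cy5 ranged from -0.064 to 0.185 for Cdkn1a in M minus C and from -0.195 to 0.041 for Ccng1 in MM minus CC.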
